A study of Mus musculus with 25 samples.

Results

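The 35 genes described here encode the protein-folding machinery of the endoplasmic reticulum (ER), the ER-associated degradation pathway (ERAD) and the stress sensors of the unfolded protein response. They were chosen by name for their function, with earlier results of these data known. All 35 were found by Ensembl identifier in both mouse tables. A ribosome-capture table held 45706 genes and a cell culture table held 44674 genes. The first table held 16 libraries of hypothalamus from 12-week-old mice that carried 1 copy each of Slco1c1-CreERT2, a tamoxifen-inducible Cre recombinase driven by the Slco1c1 promoter, and of ROSA26 lSl L10aGFP, a Cre-dependent GFP-tagged ribosomal protein. All of these mice received tamoxifen, and 3 weeks later their food for 3 days was either control chow (CD, control diet) or rich in fat (HFD). Each library came from a pool of 4 mice, 2 male and 2 female, and each diet gave 4 libraries of RNA bound to the tagged ribosomes (IP) and 4 of the whole tissue lysate (INPUT). IP and INPUT libraries with the same number may come from 1 pool, which the labels do not state. The second table held 9 libraries of cEND, an established mouse brain endothelial cell line, treated with the solvent DMSO or with WZB117, a small-molecule inhibitor of the glucose transporter GLUT1, at 0.5 µM or 10 µM. There was 1 library of every treatment from each of passages 12, 14 and 18. The 3 replicates of a group are therefore passages of 1 line. For WZB117 without a passage term, p-values measure the spread between passages. With passage as a block, they measure the spread of the treatment changes over the passages. Levels are given as CPM, counts scaled to a common library size, and a gene is said to have risen or fallen where edgeR's quasi-likelihood test gave a Benjamini-Hochberg adjusted p under 0.05 over all genes tested.

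As background, secreted and membrane proteins fold in the ER with the help of chaperones, lectins and disulfide enzymes, and those that fail are passed back to the cytosol for destruction by ERAD. When unfolded proteins build up, the membrane sensors IRE1 (Ern1), ATF6 and PERK (Eif2ak3) switch on a shared set of genes: ATF6 chiefly chaperones, and IRE1, by splicing the Xbp1 transcript, chiefly ERAD and secretory genes. The chaperones BiP (Hspa5) and GRP94 (Hsp90b1) were named glucose-regulated proteins because cells deprived of glucose make more of them.

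Promoters of 13 of the 35 genes hold known elements of the unfolded protein response. The genes were chosen for their part in ER folding and this same response. The shares below are therefore a description and not an independent test. The ER stress response element (ERSE), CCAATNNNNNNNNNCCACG, is the site at which ATF6 acts together with the CCAAT-binding factor NF-Y; ERSE-II, ATTGGNCCACG, is a compact relative, and TGACGTGG is the core of the unfolded protein response element. These letters were searched on both strands in RefSeq windows (build GRCm38.p6) that run from 250 bases before to 50 bases after each gene's start, and 30 of the 35 genes had a window. The genes Atf6, Hyou1, Manf, Derl1 and Sec61a1 had none. ERSE letters were found in 10 of the 30 genes (33.3%) and in 37 of all 27025 genes with a window (0.137%). ERSE-II letters were found in 2 of the 30 (6.67%, against 0.0444% of all genes) and the shorter core in 1 (3.33%, against 0.714%). The 13 matches before the RefSeq start and the 1 after it, in Dnajb11, are printed below with 5 flanking bases on each side. They show the element in each gene. Each runs 5′ to 3′ on the strand that reads as the element, and capitals mark its fixed letters. The matches of Hspa5 and Sec24d lie after the GENCODE starts of these genes, at chr2:34771970 and chr3:123267455, and so inside the GENCODE gene. No match was shared between 2 elements.
Hspa5, chr2:34772020-34772048, plus strand: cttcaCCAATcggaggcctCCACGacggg
Hsp90b1, distal, chr10:86705633-86705661, minus strand: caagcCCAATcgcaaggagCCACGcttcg
Hsp90b1, proximal, chr10:86705528-86705556, plus strand: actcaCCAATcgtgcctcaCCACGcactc
Dnajc3, chr14:118937822-118937850, plus strand: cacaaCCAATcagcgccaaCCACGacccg
Creld2, chr15:88819515-88819543, minus strand: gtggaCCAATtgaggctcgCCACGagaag
Calr, chr8:84847070-84847098, plus strand: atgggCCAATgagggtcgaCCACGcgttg
Canx, chr11:50325795-50325823, minus strand: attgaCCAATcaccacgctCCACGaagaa
Pdia6, chr12:17266486-17266514, plus strand: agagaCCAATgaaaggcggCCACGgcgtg
Ero1lb, chr13:12565677-12565705, minus strand: ggcggCCAATgaggcgggaCCACGaggcc
Syvn1, chr19:6046527-6046555, plus strand: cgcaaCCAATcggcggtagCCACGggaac
Derl3, chr10:75893237-75893265, minus strand: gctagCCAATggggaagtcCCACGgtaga
Dnajb11, ERSE-II, chr16:22857847-22857867, plus strand: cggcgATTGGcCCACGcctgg
Herpud1, ERSE-II, chr8:94386372-94386392, plus strand: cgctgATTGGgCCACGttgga
Sec24d, core, chr3:123267465-123267482, plus strand: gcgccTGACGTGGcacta
Hsp90b1 held 2 ERSE matches, on opposite strands. The whole 250 bases before the start of Dnajc3, the gene of an inhibitor of PERK, show where the element lies in a promoter (chr14:118937682-118937931, plus strand).
Dnajc3: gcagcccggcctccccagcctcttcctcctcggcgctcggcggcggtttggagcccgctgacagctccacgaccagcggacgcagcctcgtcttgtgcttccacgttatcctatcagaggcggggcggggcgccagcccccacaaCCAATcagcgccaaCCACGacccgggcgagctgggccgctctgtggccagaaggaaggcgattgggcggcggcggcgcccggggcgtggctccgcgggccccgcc
A match describes letters only, and a window without one says nothing of the factors that act on the gene.

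**Figure D1:**
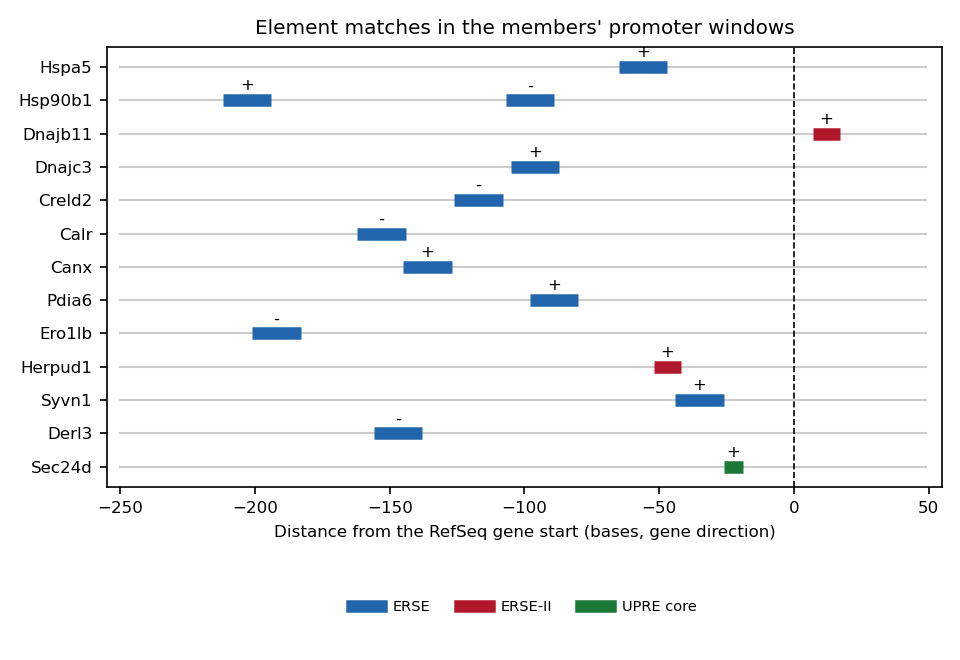
Position of each element match in the promoter windows of the 13 genes that held one. The x axis is the distance in bases from the RefSeq start in the gene's direction, coloured bars are matches, and + or - is the strand relative to the gene; every ERSE match lies before the start, from -212 to -26.

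The levels of the 35 genes were described per kilobase of exon, since only such values compare one gene with another. In DMSO-treated cEND cells Calr, encoding the calcium-binding lectin calreticulin, stood highest at 249 CPM per kb, followed by Hspa5 at 215 and Hsp90b1 at 201 (means of 3 passages). The lowest were Ero1lb, the second ER oxidase gene, at 0.884 CPM per kb, and Derl3, a Derlin of the ERAD channel, which had no count in any of the 9 libraries and was not tested there. In CD INPUT of the hypothalamus the order was headed by Hsp90b1 at 50.9 CPM per kb, the lectin Canx at 44.4 and the translocon gene Ssr3 at 30.8, with Hspa5 next at 26.7. The 2 tables were normalised separately, so no test was made across them. Wfs1, an ER membrane protein whose loss causes Wolfram syndrome, measured 14.2 CPM per kb in CD INPUT and 6.26 in DMSO-treated cells.

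Depth was 27.9 to 42.8 M per hypothalamic library and 27.3 to 41.3 M per cEND library. No 2 libraries of a group agreed within sampling noise. All 11 endothelial marker genes were present in cEND cells, at a summed 5668 to 7476 CPM with DMSO and 5875 to 7859 CPM at 10 µM, and each was above 0 in every group. With DMSO the 10 astrocyte markers summed to 155 to 179 CPM, of which Gja1 made up 164 CPM on average, the only one over 1 CPM, and Aqp4 and Gjb6 were at 0. The 10 neuronal markers summed to 240 to 494 CPM, of which Nefl made up 334 CPM on average, and Gad1 and Slc17a6 were at 0. The labels give endothelial cell as the cell type of every hypothalamic library. In CD INPUT the 11 endothelial markers summed to 14.3 to 18.5 CPM and the 10 neuronal markers to 9283 to 10681 CPM.

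The first comparison set cultured brain endothelial cells given the GLUT1 inhibitor against cells given the solvent; glucose uptake itself was not among the values analysed here. At 10 µM WZB117, 15 of the 34 genes tested rose against DMSO and 0 fell, where 0.853% of all 15466 genes tested rose and 0.42% fell. The oxidase gene Ero1l rose most, 3.61-fold, then Dnajb9 at 2.59-fold, Ero1lb at 2.04-fold and the ERAD ligase gene Syvn1 at 1.84-fold, whereas Hspa5 rose 1.63-fold. Since the passages pair the libraries (same-passage libraries deviated together), a fit with passage as a block was also made: 30 of the 34 rose and 0 fell, against 9.23% and 9.29% of all genes. In GENCODE coordinates (GRCm38) these genes lie apart, with Ero1l at chr14:45283087-45318771, Dnajb9 at chr12:44205559-44210326, Ero1lb at chr13:12565874-12611396, Syvn1 at chr19:6046576-6053712 and Hspa5 at chr2:34771970-34777547. The fitted changes themselves were nearly the same in both fits, from 0.09 to 1.85 on the log2 scale, with a median of 0.49 for these genes and -0.01 for all genes. In CPM, 33 of the 34 genes were higher than DMSO within every passage (22.3% of all genes tested), and in 32 of them every 10 µM library lay above every DMSO library (8.41%). The exception within passages was Ssr1, a translocon-associated gene, whose log2 ratio was 0.08, 0.22 and -0.05 at passages 12, 14 and 18.

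Among the sensors and transcription factors, 3 of 4 rose. Ern1, the sensor kinase and RNase that splices Xbp1, measured 72.6, 84.9 and 79.2 CPM with DMSO at passages 12, 14 and 18, and 115, 113 and 126 CPM at 10 µM. Its log2 fold change was 0.58 ± 0.09 (SE, edgeR adjusted p = 0.0211). Xbp1, the transcription factor made from the spliced transcript, measured 71.6, 66.2 and 76.4 CPM with DMSO and 112, 104 and 123 CPM at 10 µM, a log2 fold change of 0.66 ± 0.10 (edgeR adjusted p = 0.0134). Gene counts join the spliced and unspliced forms of Xbp1, so splicing itself was not measured. Eif2ak3, encoding PERK, which slows translation, went from 32.8, 35.6 and 41.1 CPM to 56.0, 55.0 and 56.4 CPM, a log2 fold change of 0.61 ± 0.11 (edgeR adjusted p = 0.0317). For all 3 genes the groups did not overlap. Exons of Eif2ak3 share 485 bases with a gene on the opposite strand, and the sources used here do not say whether counting used the strand. Atf6, the sensor released from the ER to act in the nucleus, measured 96.8, 96.7 and 91.7 CPM with DMSO and 127, 110 and 102 CPM at 10 µM. Those groups did not overlap either, but the log2 fold change of 0.25 ± 0.10 did not pass (edgeR adjusted p = 0.383) and did so only with the passage block (0.24 ± 0.07, edgeR adjusted p = 0.00892).

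Of the 10 genes for Hsp70 and Hsp90 folding, 7 rose. The median change of the 10 was 0.58 on the log2 scale. Hspa5, encoding BiP, the main ER Hsp70, measured 938, 849 and 937 CPM with DMSO and 1530, 1457 and 1453 CPM at 10 µM. The log2 fold change was 0.70 ± 0.08 (edgeR adjusted p = 0.00539), and the lowest treated library stood well above the highest control. Dnajb9 encodes ERdj4, a co-chaperone that keeps BiP on IRE1. It measured 15.2, 12.6 and 17.2 CPM with DMSO and 43.5, 34.1 and 38.9 CPM at 10 µM, with a log2 fold change of 1.37 ± 0.15 (edgeR adjusted p = 0.00497). The increase held in all 3 passages, with log2 ratios of 1.52, 1.43 and 1.18. Creld2, encoding an ER-resident protein with disulfide isomerase activity, went from 60.4, 59.3 and 62.0 CPM to 100, 99.4 and 93.2 CPM, a log2 fold change of 0.69 ± 0.08 (edgeR adjusted p = 0.00497). The Creld2 libraries of a group differed little, and the groups were far apart. Sdf2l1, a partner of the ER Hsp40 proteins, rose by 0.67 ± 0.10 on the log2 scale, Manf, a secreted ER stress protein that binds BiP, by 0.60 ± 0.09, Dnajc3 by 0.56 ± 0.09, and Hyou1, the nucleotide exchange factor of BiP, by 0.51 ± 0.08. The remaining 3 genes rose only with the passage block: Hsp90b1 at 0.40 ± 0.06, Dnajb11, a BiP co-chaperone, at 0.40 ± 0.06, and Dnajc10, an ER reductase, at 0.18 ± 0.06. Exons of Hsp90b1 and Manf overlap other genes, so their counts are uncertain to that extent.

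Of the 7 lectin and disulfide genes 2 rose without the block, both of them oxidase genes, and 6 rose with it. Ero1l, encoding the oxidase that recharges protein disulfide isomerase and known also as a hypoxia-inducible gene, measured 122, 135 and 146 CPM with DMSO and 592, 425 and 435 CPM at 10 µM. Its log2 fold change of 1.85 ± 0.15 (edgeR adjusted p = 0.00204) was the largest of the 34 genes, and the passage 12 library was the highest of the 3. Ero1lb rose from 7.30, 5.24 and 5.11 CPM to 14.6, 9.77 and 11.7 CPM, a log2 fold change of 1.03 ± 0.20 (edgeR adjusted p = 0.0415). The calreticulin gene Calr measured 705, 650 and 795 CPM with DMSO and 1040, 988 and 1066 CPM at 10 µM. The Calr groups were separate, yet its log2 fold change of 0.53 ± 0.12 missed the threshold without the block (edgeR adjusted p = 0.0768) and passed with it (7.22e-07). A pseudogene named after Calr exists, so reads may be split between them. The isomerase genes Pdia4, Pdia6 and Pdia3 rose only with the passage block, by 0.46 ± 0.06, 0.42 ± 0.06 and 0.31 ± 0.07 on the log2 scale. Canx, encoding the membrane lectin calnexin, did not pass in either fit (0.16 ± 0.06 with the block, edgeR adjusted p = 0.0824).

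**Figure D2:**
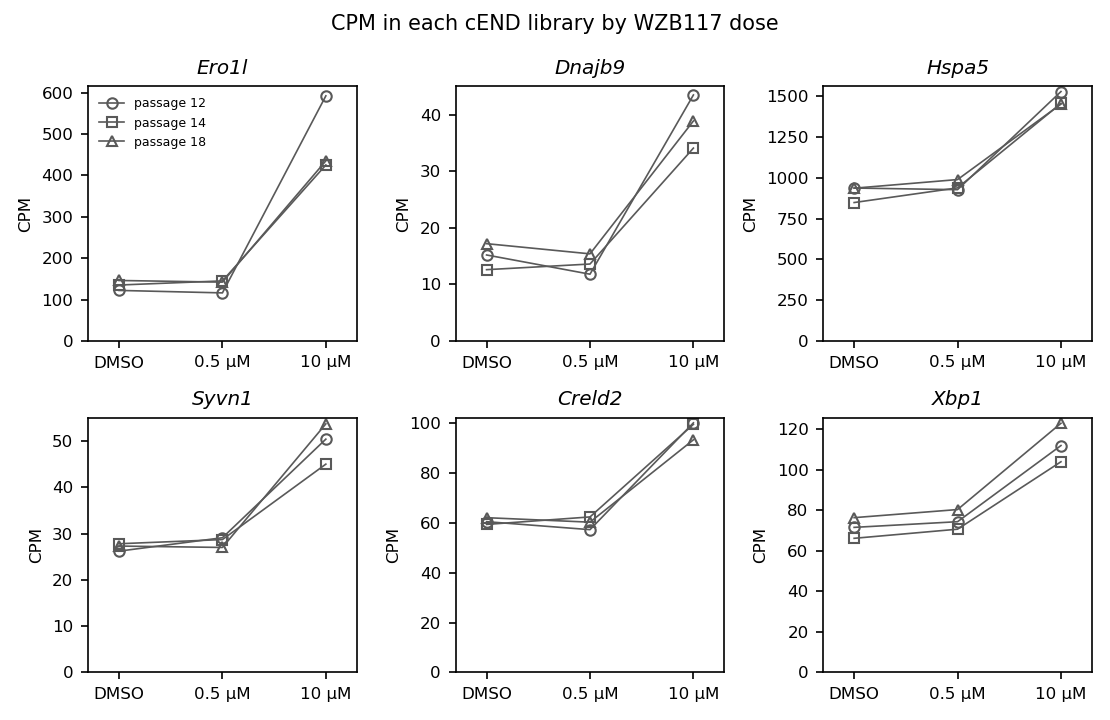
CPM (y axis, from 0) of Ero1l, Dnajb9, Hspa5, Syvn1, Creld2 and Xbp1 in each of the 9 cEND libraries by WZB117 dose (x axis), with lines joining libraries of 1 passage. DMSO and 0.5 µM libraries overlap in every panel, and all 10 µM libraries lie above them.

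Of the 7 ERAD genes tested, 2 rose without the block and 6 with it. Syvn1 encodes HRD1, the ubiquitin ligase at the centre of the ERAD channel. It measured 26.2, 27.8 and 27.3 CPM with DMSO and 50.4, 45.0 and 53.7 CPM at 10 µM, a log2 fold change of 0.88 ± 0.09 (edgeR adjusted p = 0.00446). The control libraries of Syvn1 lay within a narrow band, and every treated library exceeded it. Edem1, a lectin that hands misfolded glycoproteins to ERAD, rose by 0.50 ± 0.09 on the log2 scale (edgeR adjusted p = 0.0317). With the passage block Herpud1, which links HRD1 to its partners, rose by 0.58 ± 0.08, Sel1l, the scaffold of HRD1, by 0.34 ± 0.06, and Edem2 and Derl1 by 0.31 each. The increase of Herpud1 was uneven over the passages, with log2 ratios of 0.74, 0.73 and 0.27. Derl2 did not pass in either fit (0.12 ± 0.07 with the block, edgeR adjusted p = 0.257).

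Genes for translocation into the ER, export and the ER membrane had a median log2 fold change of 0.31, the lowest of the 5 roles; 1 of 6 rose without the block and 4 with it. Sec24d, a cargo adaptor of the COPII coat that carries proteins out of the ER, measured 104, 110 and 110 CPM with DMSO and 168, 156 and 157 CPM at 10 µM. Its log2 fold change was 0.57 ± 0.08 (edgeR adjusted p = 0.0132), with the treated libraries all above the controls. With the passage block Wfs1 rose by 0.49 ± 0.09, Sec61a1, the pore of the translocon, by 0.36 ± 0.06, and Ssr3 by 0.25 ± 0.06. Sec61b and Ssr1 did not pass in either fit, and their groups overlapped.

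Grouped instead by the sensor that textbook accounts assign them to, 13 of 13 ATF6 genes and 11 of 14 tested IRE1-XBP1 genes rose with the passage block, and 6 of each without it. The medians were 0.53 and 0.34 without the block; many of these genes answer to both sensors, and the difference was not tested. The 9 tested genes with ERSE letters had a median log2 fold change of 0.56, and 5 of them rose without the block. The 20 with a window but no ERSE had a median of 0.47, and 8 of them rose. With the passage block 8 of the 9 and 17 of the 20 rose, and the difference was not tested. The windows of Ero1l and Dnajb9, which had the highest fold changes, held none of the 3 elements. Of the 250 bases before the RefSeq start, however, 199 for Ero1l and all 250 for Dnajb9 lie inside the GENCODE gene. Little or none of the sequence before the GENCODE start of these genes was therefore searched.

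The number of calls in the fit without the block depended on single libraries. It was 6, 5 or 9 without the DMSO library of passage 12, 14 or 18, and 5 or 8 without the 10 µM library of passage 12 or 18. Ero1l, Dnajb9, Syvn1, Creld2 and Hspa5 were called with each library left out in turn. With the passage block single such fits called 28 to 32 genes, and 27 were called in every one of them.

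**Figure D3:**
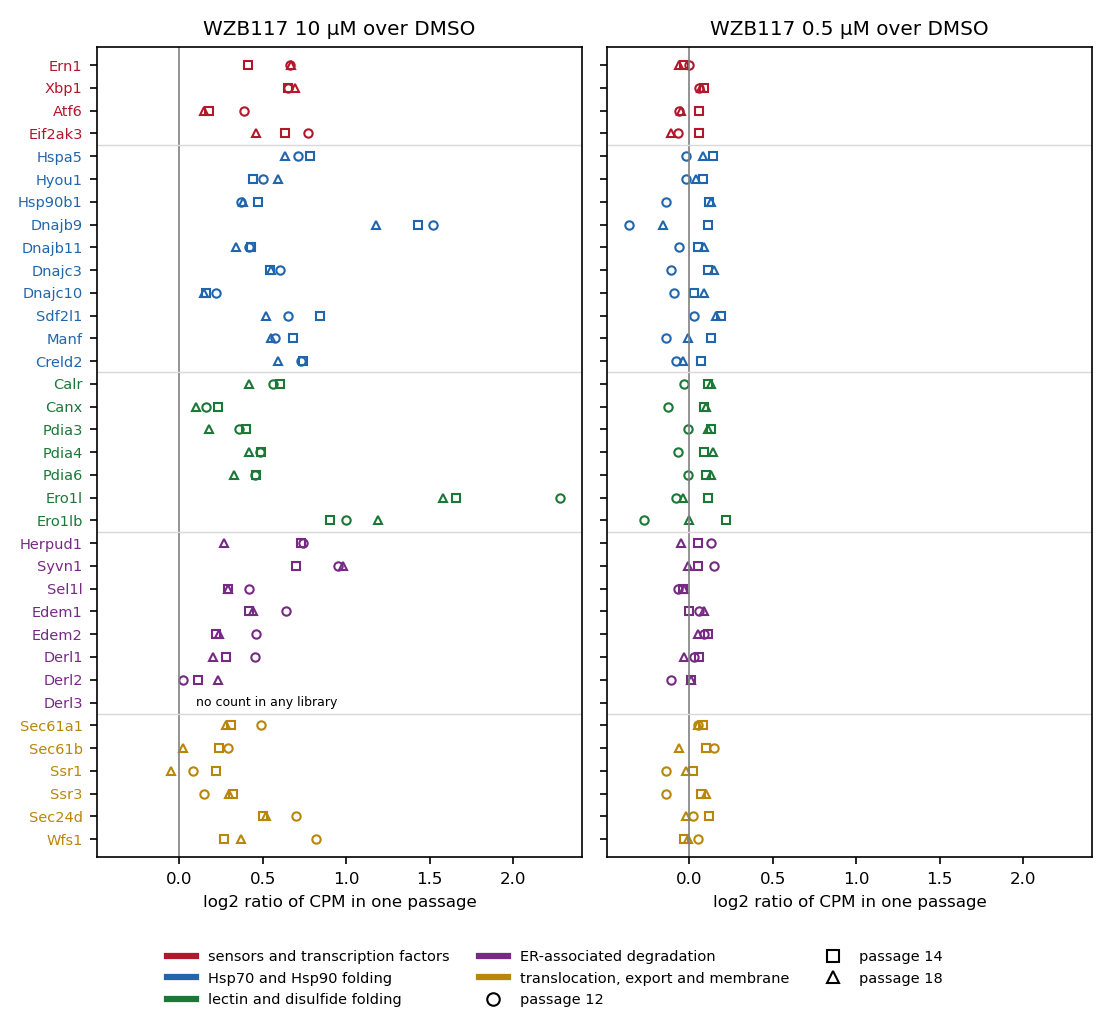
Log2 ratio of CPM (x axis) at 10 µM over DMSO (left) and 0.5 µM over DMSO (right) for each gene (rows, coloured by role) and passage (symbols). At 10 µM all points but 1 lie above 0, with medians over genes of 0.53, 0.45 and 0.40 at passages 12, 14 and 18, while at 0.5 µM they lie on both sides of 0.

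At 0.5 µM none of the 34 genes passed the test against DMSO. The edgeR test called 0 of 34 genes, and the share of all genes called was 0% without the passage block and 0% with it. Without the block none of the 34 had an unadjusted edgeR p under 0.05, but only 55 of all 15466 genes did. DESeq2 called 0 of the 34 with or without the block. The log2 fold changes ran from -0.14 to 0.13, with SEs of 0.08 to 0.20. Hspa5 measured 928, 939 and 990 CPM, Ero1l 116, 145 and 142 CPM and Dnajb9 11.8, 13.6 and 15.4 CPM at passages 12, 14 and 18, each within or close to the DMSO range. Xbp1 measured 74.4, 70.7 and 80.4 CPM and Ern1 72.5, 83.2 and 76.1 CPM. The 0.5 µM and DMSO groups overlapped for every one of the 34 genes. Few genes of any kind were separate, since 1.36% of all 15466 lay wholly above DMSO and 1.44% wholly below.

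Set against 0.5 µM, with which the DMSO comparison shares its 10 µM libraries, 14 of 34 genes rose at 10 µM and 0 fell, where 0.86% of all genes rose and 0.414% fell. With the passage block 29 rose and 0 fell (9.28% and 8.55% of all genes). In CPM, 33 of 34 were higher at 10 µM within every passage (22.9% of all genes). Ero1l rose by 1.85 ± 0.15 on the log2 scale, Dnajb9 by 1.51 ± 0.15, Syvn1 by 0.82 ± 0.09, Creld2 by 0.70 ± 0.08, Hspa5 by 0.64 ± 0.08 and Manf by 0.61 ± 0.09. Manf measured 102, 106 and 98.6 CPM at 0.5 µM and 166, 157 and 146 CPM at 10 µM, and the groups did not overlap. The count was 9 without the DMSO library of passage 14, 4 without the 0.5 µM library of passage 12 or of passage 14, and 4 or 7 without the 10 µM library of passage 12 or 18.

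Other genes of the pathway were counted in lists that do not include the 35. Over all 15466 genes tested 0.853% rose and 0.42% fell at 10 µM against DMSO, or 9.23% and 9.29% with the passage block. Of 14 genes of the PERK-ATF4-CHOP arm, which adjusts translation and amino acid supply, 2 rose at 10 µM and 9 with the passage block, and 0 fell. Those 2 were Vldlr, a lipoprotein receptor gene, at 1.28 ± 0.20 and Ppp1r15a, encoding GADD34, which restarts translation after PERK, at 1.03 ± 0.17 on the log2 scale. Of 41 other ER folding genes 3 rose and 0 fell, or 13 and 1 with the block; the 3 were P4hb, encoding protein disulfide isomerase, at 0.64 ± 0.10, Txndc11, encoding an ER thioredoxin-like protein, at 0.63 ± 0.08, and Hspa13, encoding another Hsp70, at 0.60 ± 0.08. Of 25 other ERAD genes tested 1 rose, the membrane factor Selenos at 0.55 ± 0.08, and 4 did with the block. None of 28 other translocation and N-glycosylation genes was called by edgeR without the block, but 16 rose and 1 fell with it, led by the oligosaccharyltransferase gene Ostc at 0.37 ± 0.06. Of 23 other COPII and ER-Golgi genes 1 rose, the coat gene Sec23b at 0.51 ± 0.10, and 12 did with the block. Of 12 cytosolic heat shock genes 0 were called without the block, whereas 4 rose and 1 fell with it; the 3 with the smallest p, Bag3, Hspa1b and Hsph1, rose by 0.33 ± 0.08, 0.30 ± 0.07 and 0.25 ± 0.06. Of the 11 endothelial markers 0 were called without the block, and 3 rose and 1 fell with it; their part in the results was not tested.

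Passage was compared in a fit with treatment as a second term, with 3 libraries a passage. Those 3 libraries are the 3 treatments, so the p-values measure how unevenly the treatments followed a passage difference. Passage number cannot be told apart from any other difference between the cultures of each passage. Between passages 12 and 14, 1 gene rose and 1 fell, where 10.1% of all genes rose and 11.5% fell. Dnajb11 measured 61.1, 58.4 and 82.0 CPM with DMSO, 0.5 µM and 10 µM at passage 12, then 68.6, 70.9 and 92.7 at passage 14 and 76.4, 81.5 and 96.5 at passage 18. Its log2 fold change was 0.21 ± 0.06 at passage 14 and 0.34 ± 0.06 at passage 18 against passage 12 (edgeR adjusted p = 0.0200 and 0.000109). Within each treatment the level of Dnajb11 was higher at the later passages. Herpud1 fell by 0.38 ± 0.08 from passage 12 to 14 and stood 0.26 ± 0.08 below passage 12 at passage 18, also on the log2 scale. It measured 64.9, 71.1 and 109 CPM at passage 12, 51.2, 52.9 and 84.9 at passage 14, and 62.7, 60.7 and 75.8 at passage 18.

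Between passages 12 and 18, 7 genes rose and 3 fell, against 15.9% and 19.2% of all genes; between 14 and 18, 7 rose and 1 fell, against 15.8% and 17.3%. Ssr1 fell by 0.25 ± 0.07 from passage 12 and by 0.26 ± 0.06 from passage 14 to 18. Its values were 185, 168 and 196 CPM at passage 12, 174, 176 and 203 at passage 14 and 156, 154 and 151 at passage 18, so the last passage lay below the others. Pdia6, a protein disulfide isomerase gene, measured 419, 416 and 575 CPM at passage 12, 396, 423 and 545 at passage 14 and 486, 532 and 611 at passage 18. It rose by 0.22 ± 0.06 from passage 12 and by 0.26 ± 0.06 from passage 14. Sec61b, a small translocon subunit gene, rose by 0.21 ± 0.07 and 0.25 ± 0.07, Calr by 0.18 ± 0.06 and 0.24 ± 0.06, and Ssr3 by 0.23 ± 0.06 and 0.17 ± 0.06 in the same 2 comparisons. Eif2ak3 (0.20 ± 0.07) and Canx (0.18 ± 0.06) rose, and Ero1lb fell by 0.36 ± 0.13, from passage 12 to 18. Xbp1 (0.21 ± 0.06), Dnajb9 (0.27 ± 0.10) and Edem2 (0.21 ± 0.07) rose from passage 14 to 18. All 11 endothelial markers rose from passage 12 to 18, and 9 of them from 14 to 18; the part of this shift in the values of the ER genes was not tested. Without the treatment term the 3 comparisons (14 against 12, 18 against 12, 18 against 14) called 0, 1 and 1 of these genes. Of all 15466 genes that fit called 696, 1528 and 1440 higher and 927, 1741 and 1484 lower. Herpud1 alone was called between passages 12 and 14, Dnajb11 alone between 12 and 18, and Xbp1 and Pdia6 between 14 and 18, with each library left out in turn. Leaving out 1 library gave 1 to 5 calls between passages 12 and 14, 4 to 11 between 12 and 18 and 5 to 14 between 14 and 18. Between 12 and 14 the count was 1 without the DMSO library of passage 12 or of 14, 5 without the 0.5 µM library of passage 12 and 4 without the 10 µM library of passage 12 or of 18. Between 12 and 18 it was 5 without the DMSO library of either passage and 4 without the 0.5 µM library of passage 18. Between 14 and 18 it was 5 without the DMSO or the 0.5 µM library of passage 18 or the 10 µM library of passage 14, and 14 without the 10 µM library of passage 18.

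The tagged-ribosome libraries were then set against the whole tissue, over both diets with 8 libraries each. Of the 35 genes 20 were higher in IP and 10 lower, whereas 41.6% of all 17592 genes were higher and 42.1% lower, so most genes of either kind differed. The largest increases were in Sec61a1, Dnajc3, Wfs1 and Ssr3, and the largest decreases in the oxidase genes Ero1lb and Ero1l. In these bulk libraries fewer cells of a type and less RNA per cell cannot be told apart.

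Sec61a1 measured 14.7 to 17.5 CPM in INPUT (median 15.2) and 34.6 to 43.9 CPM in IP (median 39.3), a log2 fold change of 1.33 ± 0.06 (edgeR adjusted p = 3.91e-17). Exons of Sec61a1 share 549 bases with a gene on the other strand. Ssr3 measured 120 to 143 CPM in INPUT (median 129) and 211 to 255 in IP (median 240), a log2 fold change of 0.86 ± 0.04 (edgeR adjusted p = 2.77e-15). Wfs1 went from 52.5 to 66.3 CPM (median 56.6) in INPUT to 93.7 to 126 CPM (median 108) in IP, with a log2 fold change of 0.91 ± 0.05 (edgeR adjusted p = 2.14e-14). None of these groups overlapped. Of the 6 genes of translocation, export and membrane 4 were higher and 1, Sec24d, was lower, at 10.1 to 12.2 CPM in INPUT (median 11.4) and 6.54 to 8.77 in IP (median 7.96), a log2 fold change of -0.50 ± 0.07 (edgeR adjusted p = 1.96e-07).

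Dnajc3 led the folding genes, at 36.5 to 44.7 CPM in INPUT (median 41.9) and 73.3 to 99.3 CPM in IP (median 88.6), a log2 fold change of 1.10 ± 0.05 (edgeR adjusted p = 6.71e-16). Dnajb11 was also higher, at 19.1 to 23.1 CPM in INPUT (median 21.8) and 28.3 to 38.6 in IP (median 33.8), a log2 fold change of 0.65 ± 0.06 (edgeR adjusted p = 2.40e-10). In all, 6 of the 10 Hsp70 and Hsp90 folding genes were higher and 4 lower. Hspa5 was among the lower ones, with overlapping values of 103 to 130 CPM in INPUT (median 116) and 90.4 to 114 in IP (median 101), a log2 fold change of -0.19 ± 0.05 (edgeR adjusted p = 0.00139). Hyou1 measured 27.4 to 32.8 CPM in INPUT (median 31.4) and 22.4 to 31.0 in IP (median 23.4), a log2 fold change of -0.35 ± 0.06 (edgeR adjusted p = 4.41e-06); 1 IP library reached the INPUT range.

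The isomerase and lectin genes Calr, Canx, Pdia3, Pdia4 and Pdia6 were higher in IP, by 0.19 to 0.57 on the log2 scale, whereas both oxidase genes were lower. Ero1l measured 43.2 to 53.3 CPM in INPUT (median 49.0) and 23.7 to 30.0 CPM in IP (median 27.2), a log2 fold change of -0.82 ± 0.06 (edgeR adjusted p = 7.39e-13). Ero1lb measured 9.85 to 14.2 CPM in INPUT (median 10.9) and 3.97 to 6.17 in IP (median 5.09), a log2 fold change of -1.21 ± 0.10 (edgeR adjusted p = 1.57e-11). Neither gene's groups overlapped.

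Among the ERAD genes Derl1, Derl2, Edem2 and Sel1l were higher and Edem1 lower, while Herpud1, Syvn1 and Derl3 did not pass. Derl1, a Derlin of the ERAD channel, measured 16.7 to 19.1 CPM in INPUT (median 17.4) and 23.9 to 32.5 in IP (median 29.3), a log2 fold change of 0.72 ± 0.06 (edgeR adjusted p = 1.13e-11). Derl3 was close to the limit of counting, at 0.178 to 0.903 CPM over the 16 libraries. Of the sensors Atf6 was lower, at 30.7 to 35.3 CPM in INPUT (median 34.2) and 21.2 to 24.9 in IP (median 23.6), a log2 fold change of -0.55 ± 0.05 (edgeR adjusted p = 5.57e-11). Xbp1 was lower too, at 27.9 to 33.2 CPM (median 31.0) and 18.7 to 24.1 CPM (median 22.5), a log2 fold change of -0.46 ± 0.05 (edgeR adjusted p = 2.59e-08). For both genes all IP libraries lay below all INPUT libraries. Ern1 was higher over both diets with overlapping values, 5.37 to 6.77 CPM in INPUT (median 5.98) and 4.96 to 9.67 in IP (median 7.36). The log2 fold change was 0.22 ± 0.09 (edgeR adjusted p = 0.0277). By diet, its mean was 8.11 CPM in CD IP and 6.1 in CD INPUT, but 6.19 in HFD IP and 6.04 in HFD INPUT. Eif2ak3 did not pass, at 4.18 to 6.25 CPM in INPUT (median 4.94) and 3.66 to 6.20 in IP (median 5.29), with a log2 fold change of 0.01 ± 0.10 (edgeR adjusted p = 0.938). The calls of Ern1, Dnajc10, Pdia6 and Sel1l were each lost in at least 1 fit that left out a library.

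**Figure D4:**
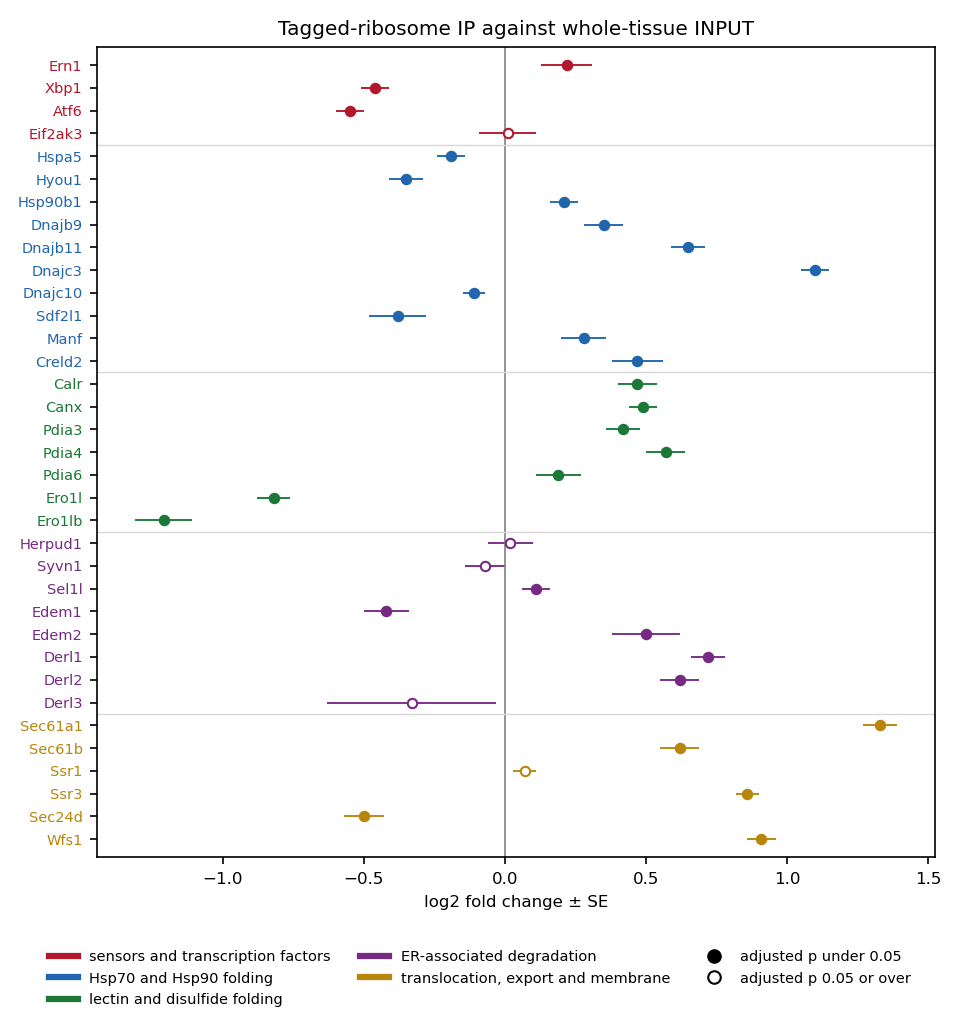
Log2 fold change of IP over INPUT with its SE (x axis; 8 libraries each) for the 35 genes (rows, coloured by role). Filled points passed the test; the genes spread to both sides of 0, from -1.21 for Ero1lb to 1.33 for Sec61a1.

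Cell type markers moved with the same contrast. All 11 endothelial markers were higher in IP (54.3 to 89.4 CPM summed in CD IP against 14.3 to 18.5 in CD INPUT), and so were all 10 astrocyte markers (25823 to 29278 against 3442 to 4227 CPM). In the HFD libraries the astrocyte sums were 23291 to 25967 CPM in IP and 3451 to 3871 in INPUT, and the endothelial sums 66.0 to 77.7 and 17.8 to 23.2. All 10 neuronal and all 8 microglial markers were lower in IP, as were 7 of 8 oligodendrocyte markers. Of 6 choroid plexus markers tested, 5 were higher. Of 8 tanycyte and ependymal markers tested, 6 were higher and 1 lower. Of 9 pericyte and smooth muscle markers, 2 were higher and 5 lower. No endothelial or astrocyte marker was at 0 in a group. The part of these cells in the IP values of the ER genes was not tested. Over all genes tested 41.6% were higher in IP and 42.1% lower. Pathway lists moved to both sides as well: 26 of 41 other ER folding genes were higher and 14 lower, 7 of 13 PERK-ATF4-CHOP genes higher and 4 lower, 18 of 26 other ERAD genes higher and 5 lower, and 4 of 12 cytosolic heat shock genes higher and 7 lower.

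The last comparison asked whether 3 days of high-fat diet changed the ER genes. None of the 35 passed the edgeR test in IP (0.0883% of all 15858 genes did) or in INPUT (0.0355% of 16879), and none had a diet effect that differed between IP and INPUT (0% of 17592). DESeq2 called 0 of these genes in each of the 3, with an adjusted p for 33 of the 35 in IP. At an unadjusted edgeR p under 0.05 there were 6 of the 35 genes in IP, 3 in INPUT and 2 in the difference. Over all genes there were 1831 of 15858 in IP, 1258 of 16879 in INPUT and 755 of 17592 in the difference. In IP the log2 fold changes ran from -0.41 to 0.34 and in INPUT from -0.30 to 0.47, with Derl3, the least counted gene, at an end of both ranges. Hspa5 measured 108, 99.3, 90.4 and 95.1 CPM in CD IP and 114, 109, 93.9 and 102 in HFD IP, ranges that overlapped. Ern1 measured 8.06, 7.36, 7.36 and 9.67 CPM in CD IP and 7.84, 6.24, 4.96 and 5.74 in HFD IP, a log2 fold change of -0.37 ± 0.14 (edgeR adjusted p = 0.290). Xbp1 measured 21.2, 24.0, 18.7 and 23.7 CPM in CD IP and 24.1, 23.4, 21.2 and 21.7 in HFD IP. Atf6 measured 21.4, 24.0, 24.1 and 24.9 CPM and then 21.2, 24.0, 23.1 and 22.0, and its ranges overlapped like those of Xbp1. Eif2ak3 measured 5.47, 4.93, 6.20 and 5.92 CPM in CD IP and 5.11, 5.61, 3.66 and 4.20 in HFD IP, with overlap. No endothelial, astrocyte or neuronal marker passed with diet in IP or in INPUT. The tanycyte and ependymal markers summed to 93.7 to 113 CPM in CD IP and 133 to 217 in HFD IP. Vim alone made up 60.2 CPM of the CD IP sum and 105 CPM of the HFD IP sum on average. Of the 7 tested in IP 0 were called, or 1 higher with library number as a block. In INPUT 1 of 9 was called higher. The anterior pituitary markers summed to 41.0 to 1046 CPM in CD INPUT and 19.6 to 238 in HFD INPUT. The part of these cells in the diet values was not tested.

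**Figure D5:**
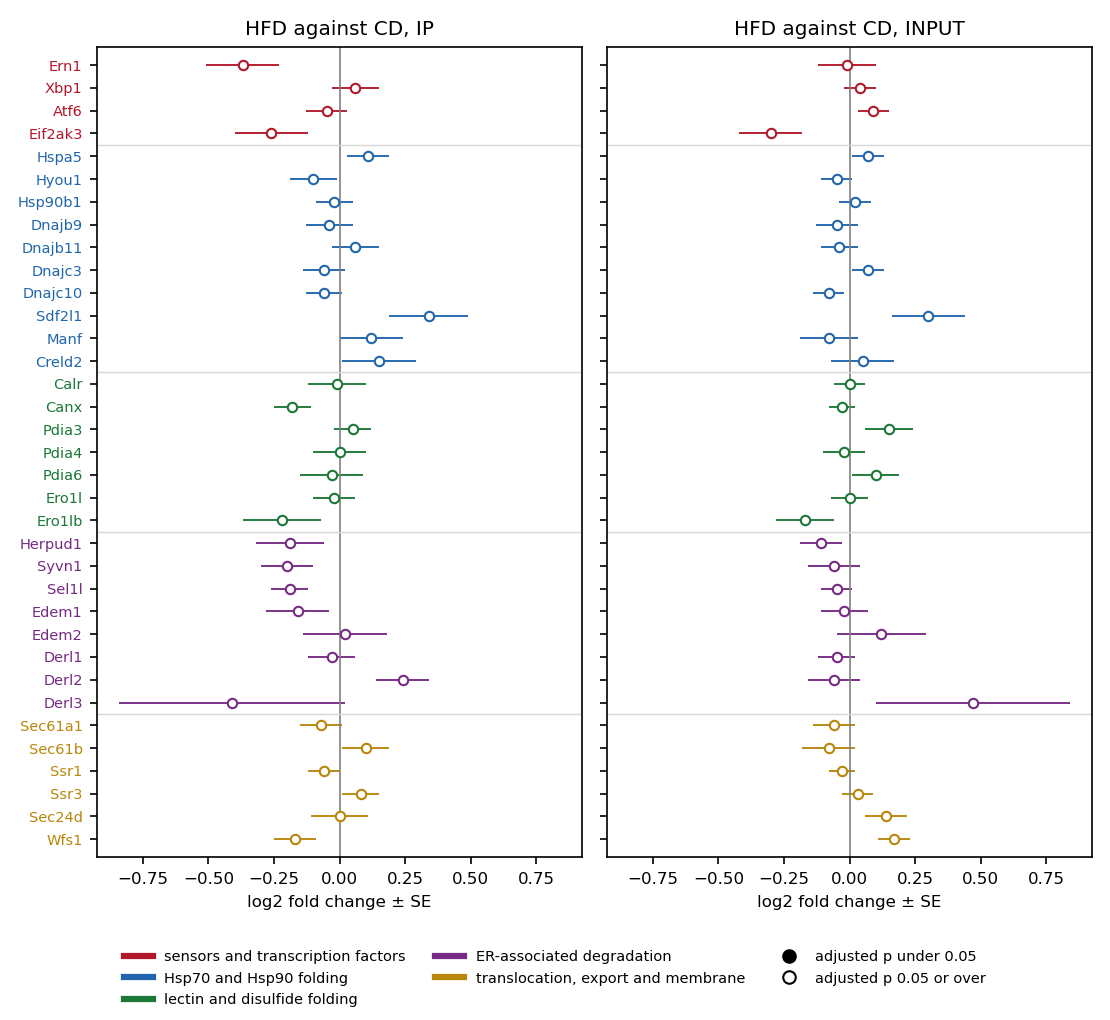
Log2 fold change of HFD over CD with its SE (x axis; 4 libraries a group) in IP (left) and INPUT (right) for the 35 genes (rows, coloured by role). All points are open, since no gene passed the test; in IP they run from -0.41 to 0.34 and in INPUT from -0.30 to 0.47.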

How the data were processed

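The deposited tables hold expected counts (estimated counts that need not be whole) per Ensembl gene, made by the authors before deposit. The submitters' processing notes name the GRCm38 build. The aligner, counting program, strand setting, annotation release and treatment time are not given in the sources used here. Counts were rounded. Gene symbols, exon lengths and coordinates came from GENCODE M21 (GRCm38). Genes passing filterByExpr were fitted with edgeR 4.0.16 in R 4.3.3 (TMM factors, robust quasi-likelihood test, Benjamini-Hochberg adjustment, threshold 0.05) on all genes, and only the 35 genes and their lists were read out; CPM used 1 set of TMM factors per table. DESeq2 1.42.0 was an alternative. The scripts were tested on simulated data.

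The 35 genes, lists, tests and alternatives were chosen with earlier results of these data known. Genes named with values in each library were the 6 with the smallest p in each direction of a comparison among those called, the 3 sensors with Xbp1, and Hspa5; pathway genes were at most 3 per list.

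The passage labels pair the cEND libraries: deviations from group means correlated at 0.351 to 0.543 within a passage. Same-numbered IP and INPUT libraries may share a pool, which the labels do not state; they were taken as 1 pool in a blocked alternative, and correlated at -0.015 to 0.121. Pools of the 2 diets hold different mice.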

Additional observations from a re-analysis of the deposited data

Results flagged for a closer look

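In groups of 4 libraries, 11 of 140 sets of 1 gene in 1 group held a library far from the others, where the gap to the nearest library passed Dixon's 95% critical value as a share of the range; chance gives about 1 set in 20. The fourth CD IP pool was high for Hyou1 (31 CPM, others 22.4 to 23.8), Calr (84 CPM, others 60.4 to 63.2) and Pdia3 (69.2 CPM, others 62.4 to 63.1). The fourth CD INPUT pool was low for Derl3 (0.208 CPM, others 0.509 to 0.557) and high for Wfs1 (57.4 CPM, others 52.5 to 53.1). Hyou1 measured 30.2 CPM in the third CD INPUT pool (others 31.7 to 32) and Herpud1 9.79 CPM in the first (others 11.4 to 11.7). In HFD INPUT, Ero1lb stood at 13 CPM in the second pool (others 9.85 to 10.1) and Ssr1 at 109 CPM in the first (others 103 to 104). In HFD IP, Sec61b was low in the third pool (17.8 CPM, others 21.8 to 22) and Wfs1 high in the second (118 CPM, others 93.7 to 97.1).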

How the results depend on the processing

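For WZB117 at 10 µM the passage block raised the calls from 15 to 30 against DMSO and from 14 to 29 against 0.5 µM. DESeq2 with the same block, an alternative chosen after seeing the data, called 31 and 30, and DESeq2 without it 21 and 19. Leaving out 1 library gave 5 to 15 and 4 to 11 calls without the block, and 28 to 32 and 25 to 32 with it, the latter also chosen after seeing the data. Over all genes against DMSO, DESeq2 called 315 higher and 189 lower, where edgeR called 132 and 65. At 0.5 µM no setting called any of the 34 genes, although DESeq2 with the block called 33 genes higher and 22 lower over the whole table. For passage, leaving out the treatment term gave 0, 1 and 1 calls (14 against 12, 18 against 12, 18 against 14). Over all genes it gave 696, 1528 and 1440 higher and 927, 1741 and 1484 lower. Leaving out 1 library gave 1 to 5, 4 to 11 and 5 to 14 calls. Ero1l was lower at passage 14 than at 12 but not called with all libraries. Without the 10 µM library of passage 12 it turned higher, at 0.24 on the log2 scale (edgeR adjusted p = 0.0188). The range was -0.18 to 0.24 over the libraries left out. With DMSO, 0.5 µM and 10 µM Ero1l measured 122, 116 and 592 CPM at passage 12 and 135, 145 and 425 at passage 14. The cause was not tested. For IP against INPUT, 30 genes were called, 27 with DESeq2 or RLE factors, 29 without a low-count filter, 30 with pool number as a block and 28 to 30 without 1 library. For diet, 0 genes were called under every setting run. The block by library number in IP and in INPUT joined CD and HFD pools of equal number. Those pools hold different mice, so that block is an arbitrary pairing. The count over all genes in IP went from 14 to 193 higher and 205 lower without a low-count filter. Derl3, below 1 CPM in tissue, is limited by depth.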
